A study of Mus musculus with 5 samples.

Results

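The immediate early transcription factors and their phosphatase partners examined here are 10 genes, Fos, Fosb, Jun, Junb, Egr1, Nr4a1, Nr4a2, Nr4a3, Dusp1 and Dusp2. They were chosen by symbol, and all 10 were found among the 31253 genes counted. Levels were taken per class of cells and per library in the 4 single-cell libraries whose count matrices were used.

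Immediate early genes are transcribed within minutes of a stimulus, from factors already present in the cell. Fos and Jun proteins pair to form the AP-1 transcription factor, Egr1 is a zinc finger factor, and the Nr4a genes encode orphan nuclear receptors that are induced by antigen receptor signals in lymphocytes. Dusp1 and Dusp2 encode nuclear phosphatases that switch off MAP kinases, the kinases upstream of most of these genes. Handling of live tissue, including warm enzymatic digestion, is also a known inducer of this family.

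Cells came from male mice aged 8 to 10 weeks, per the labels, and were sorted and captured on the BD Rhapsody system. In unilateral ureteral obstruction (UUO) the left ureter was tied and cut, and in sham surgery it was only exposed. The first kidney library is labelled PD-1 KO, strain B6.Cg-Pdcd1tm1.1Shr/J, 3 days after UUO, and it is set against wild-type kidney 14 days after UUO. The intestinal libraries are wild-type small intestine 3 days after UUO and wild-type small intestine after sham surgery. Counts of wild-type kidney 3 days after UUO are not analysed here, so genotype and day differ together between the kidney libraries and cannot be told apart. Each group is 1 library, the sources used here do not give its number of mice, and no difference below has a replicate check. The digestion that the labels describe names pulmonary artery tissue and not these organs, so how these cells were released is not given in these sources.

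The 4 libraries held between 8717372 and 16466027 unique molecular identifiers (UMIs), and between 3501 and 6960 cells were kept. The labels call the kidney cells innate lymphoid cells, yet gated CD8 T cells made up 30.5% of kept cells in the knockout-labelled library and 10.1% in the wild-type kidney library. In the intestine, 77.1% of kept cells after UUO and 83.4% after sham surgery passed a gate for group 3 innate lymphoid cells (ILC3s), as labelled. The unit of level is CPM, a gene's UMIs after each class and library is scaled to an equal total. Pdcd1, the gene named in the knockout strain, stood at 189.6 CPM in all kept cells of the knockout-labelled kidney and at 127 CPM in wild-type kidney. It was 46.9 CPM in UUO intestine and 50.5 CPM in sham intestine. Pdcd1 was thus not lower in the kidney library labelled as its knockout. These are sums over all kept cells, whose class make-up differs, as the CD8 T cell shares show, and the day differs too. Tags counted from beyond the deleted stretch would also check nothing, so the genotype could not be checked from these levels. That library is therefore called knockout-labelled throughout. The intestinal libraries shared 158 barcodes, where each other pair with a barcode list, including the wild-type day 3 kidney, shared 22 to 27. Barcodes of the knockout-labelled library were not used here. Of the cells gated as epithelial, 78 of 394 after UUO and 50 of 150 after sham surgery carried such a barcode, while 17 of 3814 ILC3s after UUO and 19 of 2920 after sham surgery did. Epithelial levels and ratios are therefore given with and without those cells.

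Promoter sequence is shown for 5 members, 4 of which hold a searched motif in the last 150 bases before the RefSeq start, and Dusp2, the member with the widest range across classes. The sequences are from RefSeq on build GRCm38.p6, 5′ to 3′ on the strand of the gene. They are Fos at chr12:85473740-85473889 (+ strand), Jun at chr4:95052223-95052372 (- strand), Nr4a3 at chr4:48045155-48045304 (+ strand), Dusp1 at chr17:26508473-26508622 (- strand) and Dusp2 at chr2:127336009-127336158 (+ strand). Every motif was searched on both strands. Capitals mark a cAMP response element core (TGACGT), a Jun-type AP-1 site (TGACATCA) or a TATA box (TATAAA).
Fos: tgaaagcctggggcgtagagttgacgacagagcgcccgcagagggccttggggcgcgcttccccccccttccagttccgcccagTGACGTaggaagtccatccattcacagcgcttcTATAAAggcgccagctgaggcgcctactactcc
Jun: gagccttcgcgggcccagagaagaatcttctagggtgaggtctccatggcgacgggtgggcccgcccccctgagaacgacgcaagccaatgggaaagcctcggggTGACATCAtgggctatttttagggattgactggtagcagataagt
Nr4a3: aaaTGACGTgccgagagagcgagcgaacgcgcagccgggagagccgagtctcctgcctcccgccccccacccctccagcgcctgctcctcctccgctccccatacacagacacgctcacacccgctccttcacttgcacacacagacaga
Dusp1: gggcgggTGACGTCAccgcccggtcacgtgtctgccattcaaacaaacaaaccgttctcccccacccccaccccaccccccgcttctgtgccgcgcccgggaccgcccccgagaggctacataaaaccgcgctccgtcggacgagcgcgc
Dusp2: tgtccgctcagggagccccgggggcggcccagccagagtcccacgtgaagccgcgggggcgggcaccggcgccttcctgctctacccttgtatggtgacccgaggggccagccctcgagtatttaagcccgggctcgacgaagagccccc
Of the 10 members, 9 had a promoter in the RefSeq table. Over the 250 bases before the start, the cAMP response element core was found in 3 of these 9, Fos, Nr4a3 and Dusp1, and in 6.56% of the 27025 promoters in the table. In Fos it lies 66 to 61 bases before the start, with a TATA box at 33 to 28 bases. The Jun-type site was found in Jun, at 45 to 38 bases before the start, and in 3.02% of all promoters. The TATA box letters were found in 13.0% of all promoters and in 2 members, Fos and Nr4a2. In Nr4a2 they lie on the opposite strand, 164 to 159 bases before the start. In Dusp1 the cores on both strands overlap, 143 to 138 and 141 to 136 bases before the start. None of the 9 held an AP-1 site (TGANTCA), an EGR site (GCGTGGGCG), an Nr4a site (AAAGGTCA), an NF-kB site or the serum response CArG box, which were found in 6.87%, 0.540%, 1.31%, 0.940% and 1.40% of all promoters in that order. These matches are descriptions of letters in a window and were not tied to the levels below.

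Taken as a sum, the 10 members were most abundant in ILC3s, where they made up 1.75% of all UMIs after UUO and 1.77% after sham surgery. Kidney ILC2s, the type 2 innate lymphoid cells, stood at 11547 summed CPM in the knockout-labelled library and 13234 in wild-type kidney. Epithelial cells of the intestine stood at 8909 CPM after UUO and 9587 after sham surgery, or 9053 after UUO and 11564 after sham surgery without cells carrying a shared barcode. Group 1 innate lymphoid and natural killer cells (ILC1/NK), CD8 T cells, CD4 T cells and T cells with gamma-delta receptor genes lay between 4812 and 6462 CPM in both kidney libraries. Regulatory T cells of wild-type kidney reached 9695 CPM in 103 cells, and the 18 such cells of the knockout-labelled library were too few for a level. B cells were lowest, at 3413 CPM in the knockout-labelled library and 3464 CPM in wild-type kidney. Of the classes with a level in both kidney libraries, ILC2s were highest and B cells lowest in both, while neighbours between them were often not separated by counting error. In wild-type kidney the 95% intervals of ILC1/NK cells (6340 to 6587 CPM) and CD4 T cells (6214 to 6550 CPM) overlapped, as did those of T cells with gamma-delta receptor genes (5124 to 5335 CPM) and CD8 T cells (5048 to 5339 CPM). In the knockout-labelled library those of CD4 T cells (5374 to 5743 CPM) and T cells with gamma-delta receptor genes (5242 to 5637 CPM) overlapped. ILC3s and kidney cells come from different libraries, so organ and class cannot be told apart between them.

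**Figure D1:**
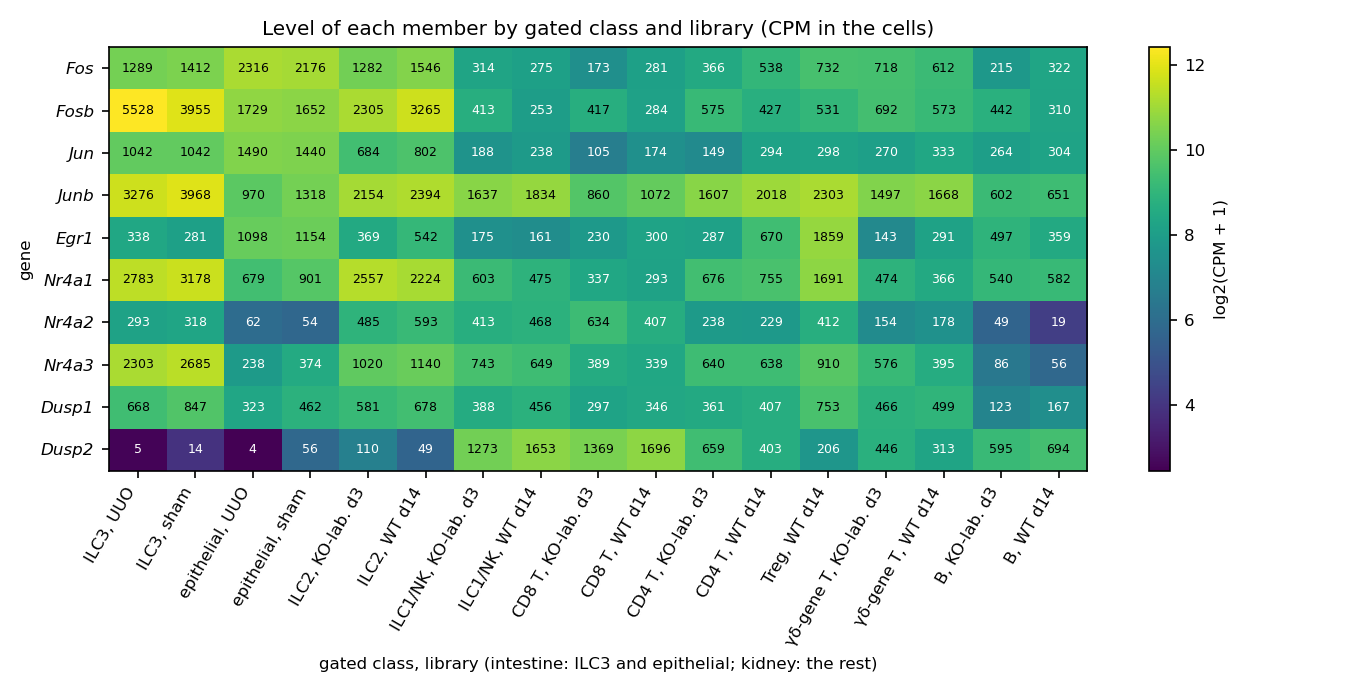
Level of each of the 10 members (rows) in each gated class and library (columns), printed in CPM and coloured by log2(CPM + 1). Fosb peaks in ILC3s, Fos and Jun in epithelial cells, and Dusp2 runs from 4.45 CPM in epithelial cells after UUO to 1696 CPM in CD8 T cells of wild-type kidney.

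Among the AP-1 genes, Fosb, which pairs with Jun proteins, stood at 5528 CPM in ILC3s after UUO and 3955 CPM after sham surgery. Its next highest level was 3265 CPM in ILC2s of wild-type kidney, with 2305 CPM in ILC2s of the knockout-labelled library. Its lowest was 253 CPM in ILC1/NK cells of wild-type kidney. Fos and Jun followed another order, with both intestinal epithelial values above every lymphoid value. Fos stood at 2316 CPM in epithelial cells after UUO and 2176 CPM after sham surgery, and at 2203 CPM after UUO and 2396 CPM after sham surgery without shared barcodes. Its lymphoid values ran from 172 CPM in CD8 T cells of the knockout-labelled library to 1546 CPM in ILC2s of wild-type kidney. Jun stood at 1490 CPM in epithelial cells after UUO and 1440 CPM after sham surgery, and was lowest at 105 CPM in CD8 T cells of the knockout-labelled library. Without shared barcodes the epithelial Jun level was 1466 CPM after UUO and 1844 CPM after sham surgery. Junb, which can restrain as well as drive AP-1 targets, had the narrowest range of the 10, 6.60-fold between its highest and lowest value. It was 3276 CPM in ILC3s after UUO and 3968 CPM after sham surgery, and 602 CPM in B cells of the knockout-labelled library. Junb overlaps Prdx2 and Jun overlaps Junos, each on the opposite strand. The sources used here do not state whether counting used strand, so reads of these pairs cannot be told apart.

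Egr1 was highest in regulatory T cells of wild-type kidney, at 1859 CPM, and next in epithelial cells, at 1098 CPM after UUO and 1154 CPM after sham surgery. Without shared barcodes the epithelial values were 1145 CPM after UUO and 1459 CPM after sham surgery. Its RNA was concentrated in few cells. The tenth of cells with the most Egr1 held 81.7% of its UMIs in ILC2s of the knockout-labelled library and 84.2% in those of wild-type kidney, while for Junb it held 26.9% in the knockout-labelled library and 26.6% in wild-type kidney. In T cells with gamma-delta receptor genes of wild-type kidney, a single cell held 122 of 530 Egr1 UMIs.

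The Nr4a receptors divided by class. Nr4a1, also known as Nur77, stood at 2783 CPM in ILC3s after UUO and 3178 CPM after sham surgery. In ILC2s it was 2557 CPM in the knockout-labelled library and 2224 CPM in wild-type kidney, while CD8 T cells held 337 CPM in the knockout-labelled library and 293 CPM in wild-type kidney. Regulatory T cells of wild-type kidney stood at 1691 CPM. Nr4a3 was 2303 CPM in ILC3s after UUO and 2685 CPM after sham surgery, and at most 1140 CPM in any other class, the value of ILC2s in wild-type kidney. Nr4a2 alone of the 3 was highest in CD8 T cells, at 634 CPM in the knockout-labelled library, although wild-type CD8 T cells were at 407 CPM and below the ILC2 values, 485 CPM in the knockout-labelled library and 593 CPM in wild-type kidney. B cells held 49.1 CPM of Nr4a2 in the knockout-labelled library and 18.6 CPM in wild-type kidney. Each of these B cell values came from few UMIs, and free RNA was not measured there.

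The phosphatases followed different orders. Dusp1, which dephosphorylates JNK and p38, varied 6.90-fold over all classes. ILC3s stood at 668 CPM after UUO and 847 CPM after sham surgery, the highest value. Regulatory T cells of wild-type kidney, at 753 CPM, and ILC2s of wild-type kidney, at 678 CPM, lay between those ILC3 values. Dusp2, first described in activated T cells, varied 381-fold. In CD8 T cells it stood at 1369 CPM in the knockout-labelled library and 1696 CPM in wild-type kidney, and in ILC1/NK cells at 1273 CPM in the knockout-labelled library and 1653 CPM in wild-type kidney. ILC3s held 4.85 CPM after UUO and 13.9 CPM after sham surgery. Epithelial cells held 4.45 CPM after UUO and 56.1 CPM after sham surgery, or 7.22 CPM after UUO and 129 CPM after sham surgery without shared barcodes. In sham epithelium 55 of its 63 UMIs came from 1 cell. Dusp1, as annotated, overlaps Ergic1 and 1 other gene on the opposite strand, with the same limit as for Junb, and 2 further genes on its own strand, whose reads strand would not separate.

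**Figure D2:**
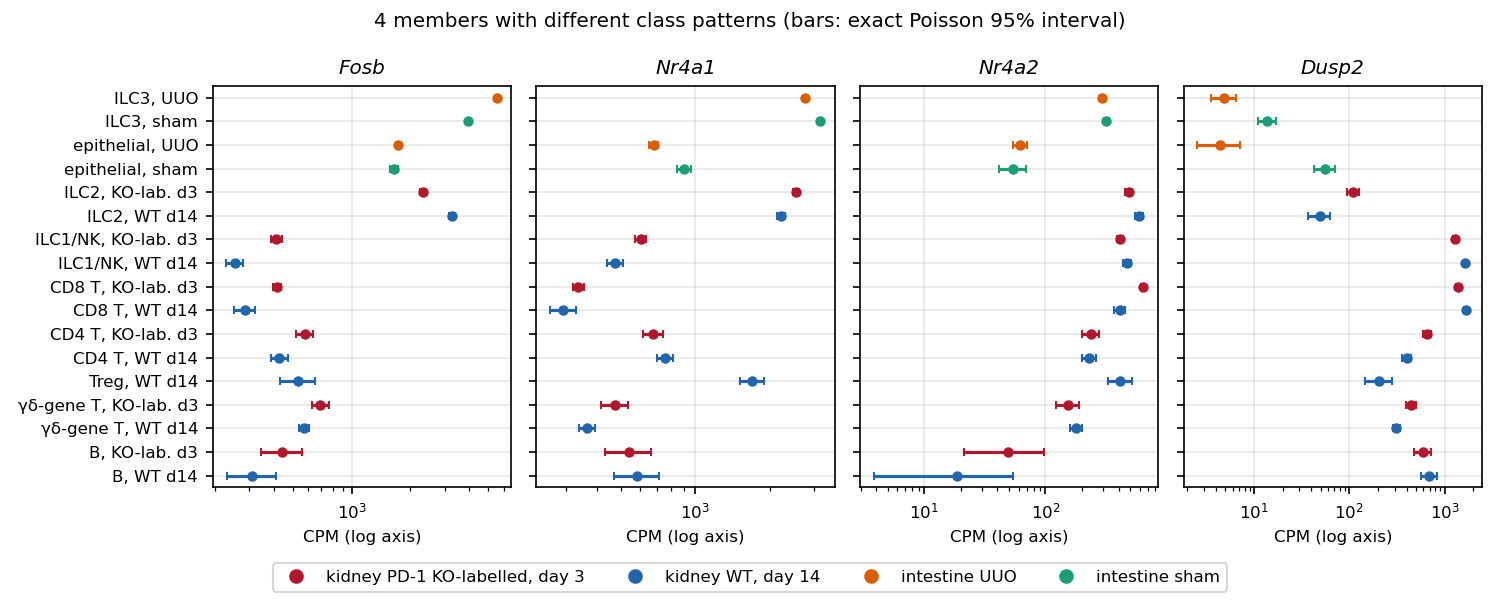
Levels in CPM (log axes) of Fosb, Nr4a1, Nr4a2 and Dusp2 by gated class and library, with exact Poisson 95% intervals that cover counting error only. Fosb and Nr4a1 are highest in ILC3s and ILC2s, while Dusp2 is highest in CD8 T and ILC1/NK cells and lowest in ILC3s and in epithelial cells after UUO.

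Within each kidney library ILC2s can be set against CD8 T cells of the same capture. ILC2s were at least 1.5-fold above CD8 T cells for 8 of 10 members and at least 1.5-fold below for 1, Dusp2, in the knockout-labelled library, where 13.0% of all tested genes were higher and 24.9% lower. The counts in wild-type kidney were also 8 and 1, beside 15.2% and 22.6% of all genes. Nr4a1 showed a log2 ratio of 2.92 in the knockout-labelled library (95% interval 2.84 to 3.01) and 2.93 in wild-type kidney (2.75 to 3.11). Fos differed by 2.89 in the knockout-labelled library and 2.46 in wild-type kidney, and Jun by 2.70 in the knockout-labelled library and 2.21 in wild-type kidney. Fosb differed by 2.47 in the knockout-labelled library and 3.52 in wild-type kidney. Nr4a2 had no common direction, at -0.39 in the knockout-labelled library and 0.54 in wild-type kidney. The Dusp2 ratio was -3.64 in the knockout-labelled library and -5.11 in wild-type kidney. Egr1 had the smallest of the 8 higher ratios, 0.68 in the knockout-labelled library and 0.85 in wild-type kidney.

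The low Dusp2 values of ILC2s were set beside CD8 T cell genes that ILC2s should lack, as a measure of free RNA. In ILC2s Dusp2 stood at 8.03% of its CD8 T level in the knockout-labelled library and at 2.90% in wild-type kidney. Ccl5, a chemokine of cytotoxic T and natural killer cells, stood at 10.0% in the knockout-labelled library and 14.7% in wild-type kidney. Gzmk, a granzyme of CD8 T cells, stood at 4.22% in the knockout-labelled library, and in wild-type kidney it had 0 UMIs in ILC2s, which allows up to 2.50 CPM, beside 227 CPM in CD8 T cells. That limit is 1.098% of the CD8 T level. Dusp2 thus lay below Ccl5 and above Gzmk in both libraries, so free RNA and ILC2 transcripts cannot be told apart at this level. Median depth was 2838.5 UMIs per cell in ILC2s and 1889 in CD8 T cells of the knockout-labelled library, and 2304 in ILC2s and 1656.5 in CD8 T cells of wild-type kidney.

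Against ILC1/NK cells the ILC2 excess was narrower. In the knockout-labelled library 5 members were at least 1.5-fold higher in ILC2s and Dusp2 was lower, beside 11.4% and 18.6% of all genes. In wild-type kidney 6 were higher and Dusp2 was lower, beside 11.7% and 22.9%. Fos, Fosb, Jun, Egr1 and Nr4a1 were higher in both libraries, and Nr4a3 passed the fold in wild-type kidney, with a ratio of 0.46 in the knockout-labelled library and 0.81 in wild-type kidney. Whether those 2 ratios differ was not tested.

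In the intestine ILC3s were at least 1.5-fold above epithelial cells for 6 members and below for 2 of the 9 with enough UMIs after UUO, where 43.2% of all genes were higher and 26.6% lower. After sham surgery 6 were higher and 3 lower of 10, beside 40.6% and 24.2%. Without shared barcodes the counts after UUO were again 6 higher and 2 lower of 9, beside 42.3% and 25.5% of all genes, and after sham surgery 5 were higher and 4 lower of 10, beside 42.1% and 21.3%. Nr4a3 differed most among the higher members, by 3.28 after UUO and 2.84 after sham surgery, or 3.06 after UUO and 2.31 after sham surgery without shared barcodes. Nr4a2 followed at 2.24 after UUO and 2.55 after sham surgery, and was at 1.86 after UUO and 2.09 after sham surgery without those cells. Fos and Egr1 were lower in ILC3s in both libraries, with an Egr1 ratio of -1.70 after UUO and -2.04 after sham surgery, or -1.77 after UUO and -2.37 after sham surgery without shared barcodes. The third lower member after sham surgery was Dusp2, whose epithelial UMIs came mostly from 1 cell. Leaving out shared barcodes put Jun past the fold as well after sham surgery, at -0.82, and left Dusp1 short of it, at 0.50. With the cells carrying shared barcodes left out, the summed log2 ratio was 0.95 after UUO and 0.62 after sham surgery, and with them it was 0.98 after UUO and 0.88 after sham surgery.

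Il22 and Kit, genes of ILC3s, were used as yardsticks of free RNA in the epithelial cells. The epithelial gate asked only that ILC3 marker UMIs be fewer than epithelial ones, so doublets with ILC3s were not excluded. The 7 ILC3 markers, Il22 and Kit among them, summed to 1311 CPM in epithelial cells after UUO and 1759 CPM after sham surgery. In ILC3s they summed to 10770 CPM after UUO and 11327 CPM after sham surgery. Il22 in epithelial cells stood at 11.2% of its ILC3 level after UUO and 15.1% after sham surgery, and Kit at 9.12% after UUO and 10.3% after sham surgery. Nr4a3 stood at 10.3% after UUO and 13.9% after sham surgery, between these yardsticks in both libraries. Without shared barcodes the yardsticks rose too. Il22 was then at 12.1% after UUO and 18.3% after sham surgery, and Kit at 10.0% after UUO and 16.0% after sham surgery. Nr4a3 was then between them after UUO, at 12.003%, and above both after sham surgery, at 20.2%. Free RNA, doublets and epithelial transcripts of Nr4a3 cannot be told apart at the level after UUO, and after sham surgery its place depends on those cells. Nr4a2 lay above both, at 21.2% after UUO and 17.1% after sham surgery, as did Nr4a1 at 24.4% after UUO and 28.3% after sham surgery. Without shared barcodes Nr4a2 was at 27.5% after UUO and 23.5% after sham surgery, and Nr4a1 at 25.8% after UUO and 35.7% after sham surgery, again above both. Junb, Fosb and Dusp1 ran from 29.6% to 54.5% over both libraries, and from 31.4% to 70.6% without shared barcodes, the highest being Dusp1 after sham surgery. Fos, Jun and Egr1 exceeded the ILC3 level itself with and without those cells.

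**Figure D3:**
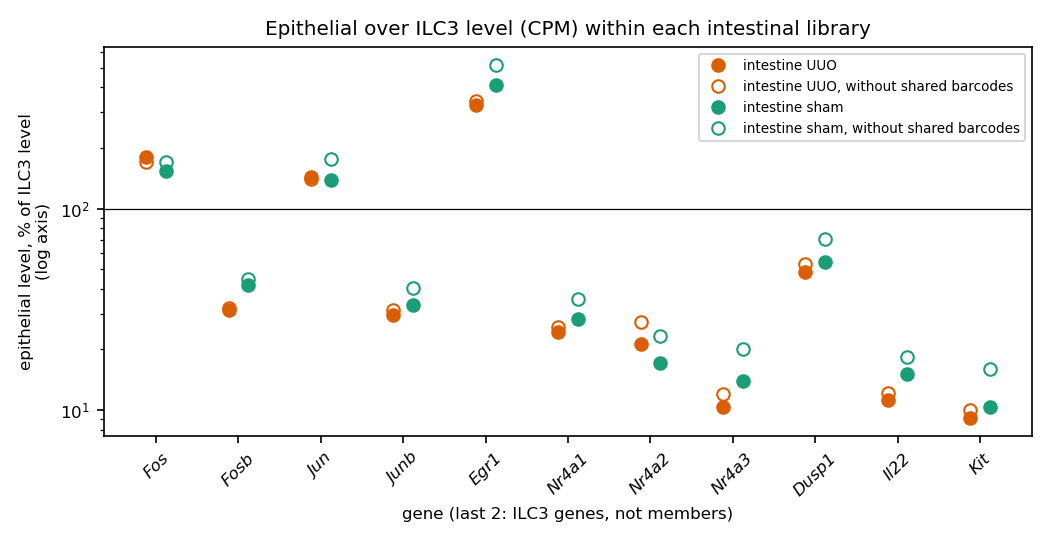
Level in epithelial cells as a percentage of the level in ILC3s of the same intestinal library (log axis) for 9 members and for Il22 and Kit, with all cells (filled) and without cells carrying a shared barcode (open). Egr1, Fos and Jun lie above 100%, and Nr4a3 lies at 10.3% after UUO and 13.9% after sham surgery with all cells, and at 12.003% after UUO and 20.2% after sham surgery without shared barcodes.

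After UUO, intestinal ILC3s showed small differences from sham ILC3s. In this comparison 0 of 10 members were at least 1.5-fold higher and 1 was lower, beside 3.32% and 1.46% of the 9091 genes tested. Fosb was higher by 0.48 on the log2 scale (0.46 to 0.50) and Egr1 by 0.26 (0.18 to 0.35). The ratio was -0.34 for Dusp1, -0.28 for Junb and -0.22 for Nr4a3, and Jun was at 1042 CPM in both libraries. The 1 member past the fold was Dusp2, at 43 UMIs after UUO and 89 after sham surgery, a log2 ratio of -1.52. The Egr1 ratio was 0.77 when classes came from clusters and 0.51 when every cell had equal weight, and 1 sham ILC3 held 154 of 1806 Egr1 UMIs. The enterocyte markers Fabp1, Fabp2, Apoa1 and Alpi, all 4 detected, summed to 988 CPM in ILC3s after UUO and 294 CPM after sham surgery. The 4 goblet cell markers, all detected, went the other way, at 156 CPM after UUO and 396 CPM after sham surgery. Hspa1a, an inducible heat shock gene, stood at 12.7 CPM after UUO and 27.6 CPM after sham surgery. The part of these in the ratios was not tested.

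ILC3s that carry CCR6-type markers (Ccr6, Tnfsf11, Cxcr5, Nrp1, Cd4) numbered 2451 after UUO and 1868 after sham surgery. Of the 9 members with enough UMIs in them, 0 were past the fold, beside 3.24% of genes higher and 1.46% lower. Egr1 was at 365 CPM after UUO and 274 CPM after sham surgery, a log2 ratio of 0.42, which reached 0.67 under a stricter gate. ILC3s with NCR or CCR9-type markers, 224 cells after UUO and 154 after sham surgery, had Egr1 at 222 CPM after UUO and 126 CPM after sham surgery, a ratio of 0.82 from 135 UMIs after UUO and 51 after sham surgery. It was the 1 of 9 past the fold, beside 2.62% of genes higher and 2.77% lower. Fos stood at 1041 CPM after UUO and 768 CPM after sham surgery in these cells, a ratio of 0.44. Dusp2 had too few UMIs to count in either subset. It had 12 UMIs after UUO and 27 after sham surgery in CCR6-type cells. In NCR or CCR9-type cells it had 7 UMIs after UUO and 34 after sham surgery. Free RNA was not measured for Dusp2 in ILC3s.

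Epithelial cells had 1 of 9 members at least 1.5-fold lower after UUO and 0 higher, beside 8.46% of genes lower and 8.03% higher. That member was Nr4a3, with the free RNA values given above, at 238 CPM after UUO and 374 CPM after sham surgery. Without shared barcodes, with 100 sham cells left, 4 of 9 members were lower and 0 higher, beside 9.3% of genes lower and 13.7% higher. These were Nr4a3 at -0.98, Dusp1 at -0.76, Nr4a1 at -0.66 and Junb at -0.64. With all cells and ratios centred on the median of all genes, 0 members were lower. Fos had a ratio of 0.09 with those cells and -0.12 without them, and Jun of 0.05 with them and -0.33 without. Enterocyte markers summed to 15804 CPM in epithelial cells after UUO and 7326 CPM after sham surgery, while goblet cell markers summed to 2346 CPM after UUO and 10951 CPM after sham surgery. Without shared barcodes enterocyte markers were at 16772 CPM after UUO and 9752 CPM after sham surgery, and goblet cell markers at 3843 CPM after UUO and 20329 CPM after sham surgery. The part of these in the ratios was not tested.

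Between the kidney libraries no class had more than 3 of 10 members past the fold. In ILC2s Dusp2 was the 1 member at least 1.5-fold higher in the knockout-labelled library, beside 5.14% of genes, and 0 were lower, beside 2.94%. Its log2 ratio of 1.16 rested on 213 UMIs in the knockout-labelled library and 59 in wild-type kidney, at a level where free RNA cannot be told apart, and it was 0.51 under a stricter gate. The T cell markers Cd3d, Cd3e and Cd3g, all 3 detected, summed to 111 CPM in ILC2s of the knockout-labelled library and 67.4 CPM in those of wild-type kidney, and Cd8a and Cd8b1 summed to 50.1 CPM in the knockout-labelled library and 4.99 CPM in wild-type kidney. Fosb stood at 2305 CPM in the knockout-labelled library and 3265 CPM in wild-type kidney, a ratio of -0.50, and Egr1 at 369 CPM in the knockout-labelled library and 542 CPM in wild-type kidney, a ratio of -0.56. Under the stricter gate these 2 passed the fold, Fosb at -0.60 and Egr1 at -0.74. Hspa1b was at 23.7 CPM in ILC2s of the knockout-labelled library and 255 CPM in those of wild-type kidney, and its part was not tested.

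ILC1/NK cells had Fosb at 413 CPM in the knockout-labelled library and 253 CPM in wild-type kidney, a log2 ratio of 0.71 (0.54 to 0.88). It was the 1 member higher, beside 3.67% of genes, with 0 lower beside 3.91%, and the stricter gate gave 0.46. In CD8 T cells Nr4a2 was higher, at 634 CPM in the knockout-labelled library and 407 CPM in wild-type kidney, a ratio of 0.64 (0.48 to 0.80). Fos was lower, at 172 CPM in the knockout-labelled library and 281 CPM in wild-type kidney. Jun was lower too, at 105 CPM in the knockout-labelled library and 174 CPM in wild-type kidney. That is 1 higher beside 5.91% of genes and 2 lower beside 5.23%, and both lower calls were lost under the stricter gate, Fos at -0.47 and Jun at -0.33. Hspa1b was at 13.0 CPM in these cells of the knockout-labelled library and 107 CPM in those of wild-type kidney, and its part was not tested.

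CD4 T cells had Dusp2 at 659 CPM in the knockout-labelled library and 403 CPM in wild-type kidney, a ratio of 0.71. Egr1 stood at 287 CPM in the knockout-labelled library and 670 CPM in wild-type kidney, and Jun at 149 CPM in the knockout-labelled library and 294 CPM in wild-type kidney, which gave 1 member higher beside 4.97% of genes and 2 lower beside 6.93%. The Egr1 ratio was -1.23 and became -0.16 under the stricter gate, where Dusp2 was at 1.19. In T cells with gamma-delta receptor genes Egr1 was at 143 CPM in the knockout-labelled library and 291 CPM in wild-type kidney, the 1 lower member beside 9.65% of genes, with 0 higher beside 4.35%. The single cell with 122 Egr1 UMIs is among the wild-type cells of this class.

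**Figure D4:**
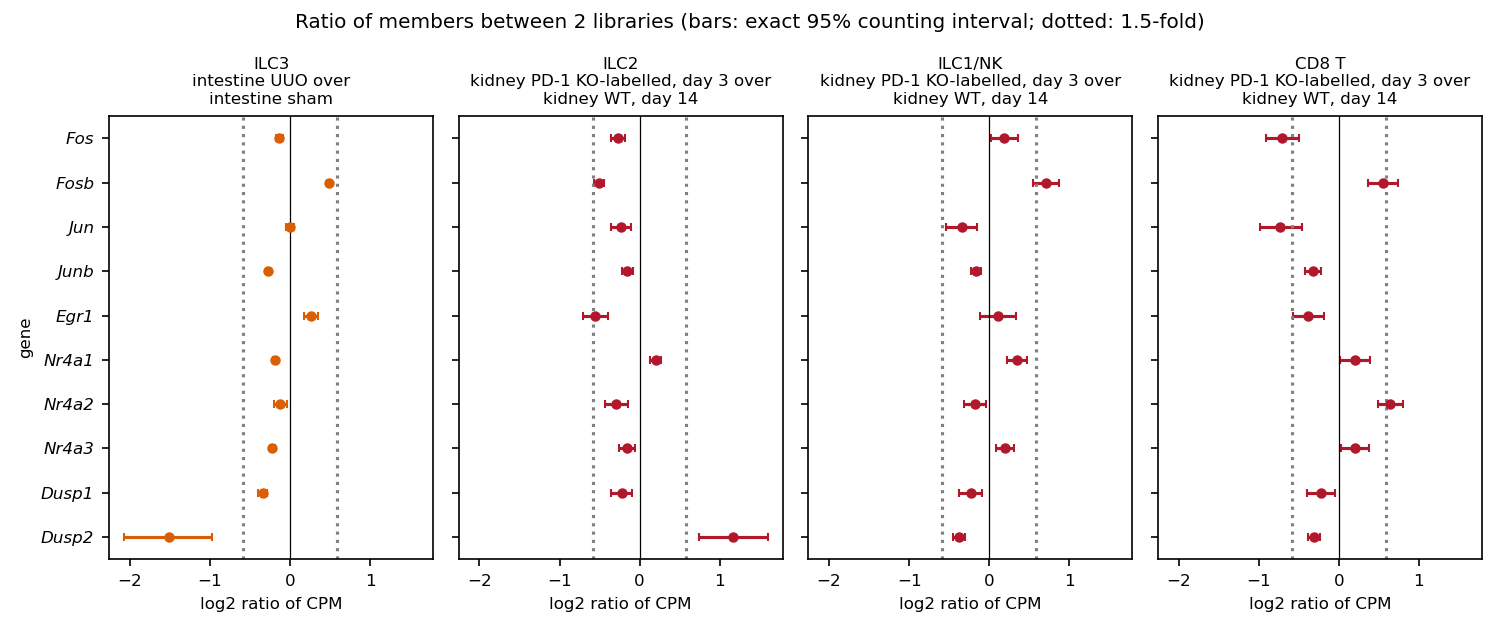
Log2 ratio of CPM for the 10 members between libraries in ILC3s (UUO over sham intestine) and in ILC2s, ILC1/NK cells and CD8 T cells (knockout-labelled day 3 over wild-type day 14 kidney). Bars are exact 95% counting intervals and dotted lines mark 1.5-fold; most points lie between the lines, and Dusp2 lies outside them in ILC3s and ILC2s.

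Other genes of the pathway were counted in lists chosen with earlier results of these data known. Of 32 other immediate early and AP-1 genes, 26 had enough UMIs to compare ILC2s with CD8 T cells in the knockout-labelled library, and 17 were higher and 2 lower. In wild-type kidney 17 of 23 were higher and 2 lower. The median log2 ratio of that list was 1.18 in the knockout-labelled library and 1.46 in wild-type kidney, while over all genes tested it was -0.19 in the knockout-labelled library and -0.16 in wild-type kidney. Atf3, a stress-induced partner of AP-1 proteins, stood at 483 CPM in ILC2s and 24.1 CPM in CD8 T cells of the knockout-labelled library, and at 597 CPM in ILC2s and 12.6 CPM in CD8 T cells of wild-type kidney. Klf4 stood at 1324 CPM in ILC2s and 107 CPM in CD8 T cells of the knockout-labelled library, and Nfkbiz, an atypical IkB protein, at 2062 CPM in ILC2s and 183 CPM in CD8 T cells. The other lists stand beside the same shares of all genes as the members, 13.0% higher and 24.9% lower in the knockout-labelled library and 15.2% higher and 22.6% lower in wild-type kidney. Of the phosphatases and ERK feedback genes, 4 of 7 were higher and 2 lower in the knockout-labelled library and 3 of 5 higher and 1 lower in wild-type kidney. Upstream kinases and factors gave 2 of 20 higher and 5 lower in the knockout-labelled library, and 3 of 16 higher and 5 lower in wild-type kidney. Their median log2 ratio was -0.10 in the knockout-labelled library and -0.35 in wild-type kidney. Lymphocyte activation genes gave 11 of 18 higher and 3 lower in the knockout-labelled library and 11 of 15 higher and 1 lower in wild-type kidney. Of that list, Il5 and Il13 were used in the ILC2 gate and limited in the CD8 T gate, and Xcl1 was limited in the ILC2 gate. The ratios of these genes were therefore partly set by the gates. Inducible heat shock genes gave 2 of 8 higher and 2 lower in the knockout-labelled library, and 3 of 9 higher and 0 lower in wild-type kidney.

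In ILC3s after UUO 3.32% of all genes were higher and 1.46% lower, with a median log2 ratio of 0.003. The share of genes lower was largest in the activation list and next in the heat shock list, both above that of all genes. The medians of the 5 lists lay between -0.09 and 0.05. Of 28 other immediate early genes 1 was higher and 1 lower, namely Zfp36l2 by 0.70 and Myc by -0.68. Activation genes gave 1 of 18 higher and 5 lower, among them Ccl3 at 8.69 CPM after UUO and 26.2 CPM after sham surgery, and Ccl4 at 19.2 CPM after UUO and 51.7 CPM after sham surgery. Spry1 was the 1 of 11 phosphatase and feedback genes that was higher, and 0 of 23 upstream genes passed the fold in either direction. Of the 10 heat shock genes 2 were lower, Hspa1a and Hspa1b.

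Detection in the same cell was counted after each cell was thinned to 1000 UMIs. Of thinned ILC3s, 98.7% after UUO and 99.3% after sham surgery held a UMI of 3 or more members. In the knockout-labelled library the share was 87.9% of ILC2s, 70.0% of ILC1/NK cells and 58.1% of CD8 T cells. In wild-type kidney it was 88.1% of ILC2s, 71.1% of ILC1/NK cells and 57.8% of CD8 T cells. CD4 T cells stood at 57.7% in the knockout-labelled library and 60.1% in wild-type kidney. T cells with gamma-delta receptor genes differed more, at 67.3% of 205 thinned cells in the knockout-labelled library and 50.2% of 875 in wild-type kidney, beside summed levels of 5437 CPM in the knockout-labelled library and 5229 CPM in wild-type kidney. B cells stood at 39.2% of 74 thinned cells in the knockout-labelled library and 29.6% of 71 in wild-type kidney. The median was 5 members per thinned ILC3 and ILC2 and 3 per ILC1/NK or CD8 T cell.

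**Figure D5:**
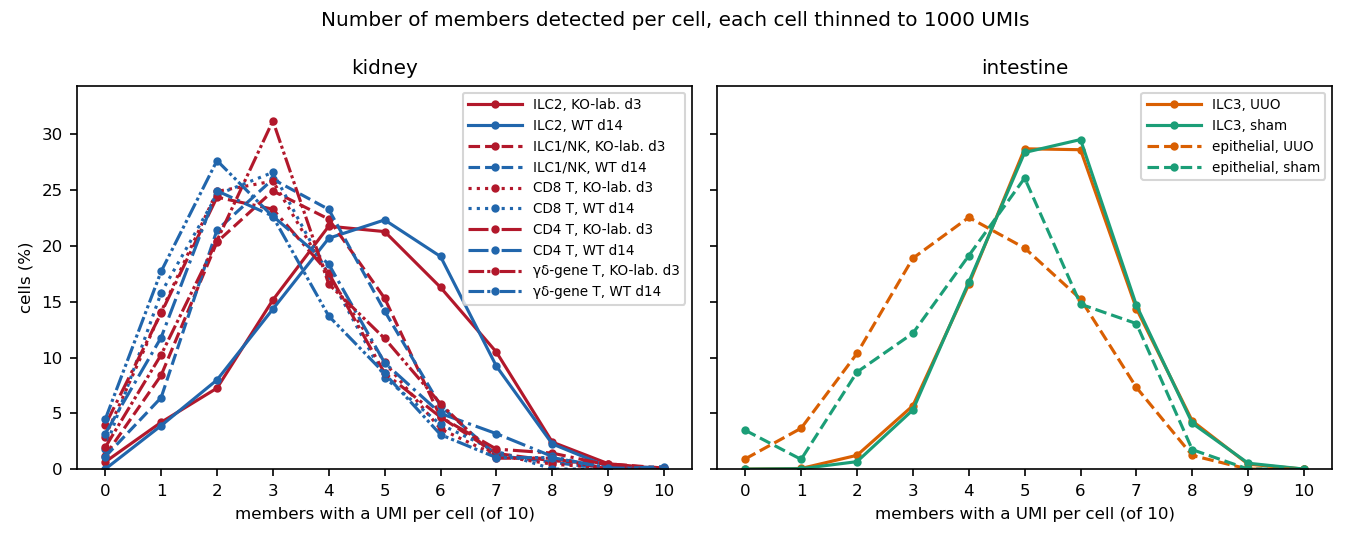
Percentage of cells (y axis) by the number of the 10 members with a UMI (x axis), each cell thinned to 1000 UMIs, for kidney and intestinal classes. ILC3 and ILC2 curves sit to the right of those of ILC1/NK, CD8 T and CD4 T cells, and T cells with gamma-delta receptor genes (γδ-gene T) hold 3 or more members in 67.3% of cells of the knockout-labelled library and 50.2% of those of wild-type kidney.

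To ask whether members were found together beyond their single shares, cells with both of a pair were divided by the number expected from those shares. Pairs were kept where each of the members was detected in 5 to 50% of cells. Over all such pairs the ratio was 1.14 in CD8 T cells of the knockout-labelled library (28 pairs) and 1.13 in those of wild-type kidney, and in CD4 T cells (36 pairs) it was 1.18 in the knockout-labelled library and 1.21 in wild-type kidney. T cells with gamma-delta receptor genes gave 1.04 in the knockout-labelled library (95% interval 0.95 to 1.13) and 1.20 in wild-type kidney (1.15 to 1.26). ILC1/NK cells gave 1.11 in the knockout-labelled library and 1.09 in wild-type kidney. ILC2s gave 1.102 in the knockout-labelled library (0.9998 to 1.21) and 1.12 in wild-type kidney (0.997 to 1.26). Each cell enters many pairs, so the summed counts are not independent and these intervals are likely too narrow. Whether classes or libraries differ in this ratio was not tested. By construction 5% of all gene pairs lie above their 95th percentile. Member pairs above it were 6 of 28 in CD8 T cells of the knockout-labelled library and 1 of 28 in those of wild-type kidney. In CD4 T cells they were 1 of 36 in each library. In T cells with gamma-delta receptor genes they were 0 of 36 in the knockout-labelled library and 6 of 36 in wild-type kidney. ILC1/NK cells had 3 of 28 in the knockout-labelled library and 1 of 28 in wild-type kidney, and ILC2s had 0 in each. The median over all gene pairs in the range lay between 0.972 and 0.998 in CD8 T and CD4 T cells of both libraries. In ILC3s the ratio was 0.969 after UUO and 0.946 after sham surgery, from the 3 pairs that fell in the range. The pair of Fos and Jun was the strongest in CD8 T cells of both libraries. It was found in 43 cells against 20.5 expected in the knockout-labelled library, and in 18 against 9.68 in wild-type kidney. Fos and Fosb were found together in 71 ILC1/NK cells against 45.5 expected in the knockout-labelled library, and in 38 against 19.95 in wild-type kidney. Dusp2 was found with Fos and Fosb in fewer cells than expected in T cells with gamma-delta receptor genes. Wild-type kidney had 38 such cells against 52.1 expected for Fos and 27 against 43.4 for Fosb. The Fosb pair was the lowest of the 36 member pairs there. In the knockout-labelled library the same class had 13 cells against 21.6 expected for Fos and 14 against 20.3 for Fosb. All of these ratios lay between the 5th and 95th percentiles of all gene pairs in the class. Those percentiles were 0.483 and 1.55 in wild-type kidney and 0 and 2.14 in the knockout-labelled library. No pair could lie below a 5th percentile of 0. The percentiles also pool all gene pairs in the 5 to 50% range, whose expected counts differ. Whether these Dusp2 pairs stand apart from gene pairs with similar expected counts was not tested.

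Cells with 3 or more members were then set against cells with 0 or 1, with the members left out of the totals. In CD8 T cells of the knockout-labelled library 7 of 19 other immediate early genes were at least 1.5-fold higher, against 3.15% of all genes tested. They include Klf4, at 119 CPM in cells with many members and 51.5 CPM in cells with few, and Csrnp1, at 368 CPM in cells with many and 203 CPM in cells with few. In CD8 T cells of wild-type kidney 0 of 11 passed the fold, against 4.33% of all genes. In CD4 T cells 7 of 12 were higher in the knockout-labelled library, against 6.40% of all genes, and 8 of 15 in wild-type kidney, against 7.75%. In ILC1/NK cells 4 of 22 were higher in the knockout-labelled library, against 8.18% of all genes, and 5 of 21 in wild-type kidney, against 9.97%. T cells with gamma-delta receptor genes of wild-type kidney gave 6 of 17, against 4.14%. Lymphocyte activation genes were counted beside the same shares. In CD8 T cells 3 of 9 were higher in the knockout-labelled library and 2 of 5 in wild-type kidney. CD4 T cells gave 0 of 4 in the knockout-labelled library and 3 of 5 in wild-type kidney. ILC1/NK cells gave 2 of 9 and 1 of 7 in that order. T cells with gamma-delta receptor genes of wild-type kidney gave 3 of 6. In wild-type kidney 1 was lower in CD8 T cells (2.01% of all genes) and 1 in ILC1/NK cells (5.49%). Inducible heat shock genes gave 0 of 7 in CD8 T cells of the knockout-labelled library. They gave 1 of 3 in CD4 T cells of wild-type kidney, with a list median of -0.15, and 1 of 5 in ILC1/NK cells of wild-type kidney, with a median of 0.38. Median depth before thinning was 1907 UMIs in the CD8 T cells with many members and 1929.5 in those with few in the knockout-labelled library, and the median mitochondrial share was 5.29% in cells with many and 5.37% in cells with few.

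Across 15 class and library points, the genes whose level was most like the sum of the members were named by Pearson correlation of log2(CPM + 10). They were Vipr2 (0.94), Dot1l (0.94), Rheb (0.93), Ifrd1 (0.93), Iars2 (0.91), C2 (0.90), Cntn1 (0.90), Sdc4 (0.89), Ptbp1 (0.89) and Rab11fip1 (0.89). Among the members Fos and Jun were most alike (0.96), and Jun and Dusp2 least (-0.93). The points share libraries, depth and free RNA, so these values describe these 15 points only.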

How the data were processed

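The deposited values are counts of UMIs per gene and cell, made by the authors, and are not normalized. CASAVA 1.8, UMI-tools and Seurat appear in the submitters' processing notes, with mm10 as the build. The sources used here do not state the aligner, the annotation or the strandedness of counting. The wild-type kidney day 14 matrix carried no gene names and took the identical list of the other libraries (r = 0.992 with the knockout-labelled kidney across genes, 0.209 with genes shifted by 1 place). Of 31253 gene IDs, 31184 were in GENCODE M21, on GRCm38.

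Cells with fewer than 500 UMIs, fewer than 250 genes or over 20% mitochondrial UMIs were left out. Classes were gated per cell by marker UMIs: at least 2 of Cd3d, Cd3e and Cd3g for T cells, at least 3 class marker UMIs for ILC1/NK, ILC2, ILC3 and B cells, and at least 4 epithelial UMIs, more than ILC3 marker UMIs, for epithelial cells. Kidney T cells, ILC1/NK cells and ILC2s with over 1 UMI of chosen markers of another lymphoid class were left out. So were those with over 2 UMIs of epithelial or of macrophage markers. ILC3s were limited to 3 epithelial, 2 macrophage, 1 T cell and 1 B cell UMI. Epithelial cells were limited only to 1 T cell and 1 B cell UMI, and B cells only to 1 T cell and 1 ILC1/NK UMI. Macrophage UMIs had no limit in epithelial or B cells. The gate thresholds were set with the data in view, and that for epithelial cells was lowered after a first look. This exclusion stood in for doublet removal, only in part for epithelial and B cells, and no doublet caller was run. In naming clusters, haemoglobin genes were set aside after they were seen to lead a T cell cluster.

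UMIs were summed per class and library into CPM for classes of at least 50 cells. Ratios needed 100 cells in both and 100 UMIs over both, and called means at least 1.5-fold. Intervals are exact 95% Poisson, binomial or conditional binomial intervals and cover counting error only. Those of co-detection are Poisson intervals on sums over pairs that share cells, so they are not exact. With 1 library per group there is no test and no p-value, and levels are not per gene length, so levels are not compared between genes. Ratios and co-detection were tested on simulated data. All 10 members are named, plus up to 4 genes of each list by size of ratio and the 10 most similar genes. The text gives a part of these. The members and lists were chosen with earlier results of these data known. Alternatives are given in the closing section. Tools were Python 3.11.15, numpy 2.4.6, scipy 1.17.1, pandas 2.3.3, scanpy 1.11.5, leidenalg 0.10.2 and matplotlib 3.10.9.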

Additional observations from a re-analysis of the deposited data

Results flagged for a closer look

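In the kidney, 4 members were flagged because their ratios between the same libraries went opposite ways in different classes. Nr4a1, Nr4a3 and Egr1 also had ratios of both signs, without meeting either criterion below. A first criterion, at least 1.5-fold in both directions, was met by 0 members. After the values had been seen it was replaced by a wider one, at least 1.5-fold in 1 class and an interval on the other side of 0 in another, which 4 members met. None of these differences between classes was tested, since each group is 1 library, and all classes share the libraries.

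The log2 ratio of the knockout-labelled over the wild-type kidney for Fosb was -0.50 in ILC2s, 0.71 in ILC1/NK cells, 0.55 in CD8 T cells, 0.43 in CD4 T cells and 0.27 in T cells with gamma-delta receptor genes. For Fos it was -0.27 in ILC2s, 0.19 in ILC1/NK cells, -0.70 in CD8 T cells, -0.56 in CD4 T cells and 0.23 in T cells with gamma-delta receptor genes. For Nr4a2 it was -0.29 in ILC2s, -0.18 in ILC1/NK cells and 0.64 in CD8 T cells. For Dusp2 it was 1.16 in ILC2s, -0.38 in ILC1/NK cells, -0.31 in CD8 T cells, 0.71 in CD4 T cells and 0.51 in T cells with gamma-delta receptor genes. Under the stricter gate Fos in ILC1/NK cells was -0.10, and by clusters Fos in T cells with gamma-delta receptor genes was -0.01.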

How the results depend on the processing

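No paired analysis was possible because each group is 1 library. With 1 library per group, the limits are that no spread between mice is known, that free RNA bounds low values, and that the epithelial values rest partly on cells whose barcodes occur in both libraries. The stricter gate asks for 1 more class UMI and, where other classes are limited, allows 1 fewer UMI of them. In kidney T cells, ILC1/NK cells and ILC2s it thus still lets through 1 epithelial or macrophage UMI. For epithelial cells the stricter gate also asks for a wider margin of epithelial over ILC3 marker UMIs. It gave no value for ILC3s with NCR or CCR9-type markers, and leaving out cells over 3 times the median UMIs gave none for epithelium between libraries, with too few cells left. The cause of each change below was not tested.

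Counts of members past 1.5-fold moved as follows. After UUO the higher count was 1 instead of 0 in ILC3s under clusters, and 1 instead of 0 in CCR6-type ILC3s under the stricter gate, clusters, the depth limit and equal weight per cell. With no minimum of UMIs the lower count was 1 instead of 0 in CCR6-type and in NCR or CCR9-type ILC3s and 2 instead of 1 in epithelium. In epithelium the lower count was 4 without shared barcodes, 0 with equal weight per cell and 0 with centred ratios, and the higher count was 1 with equal weight. Between kidney libraries, the stricter gate gave 0 higher and 2 lower in ILC2s, 0 higher in ILC1/NK cells, 0 lower in CD8 T cells, 2 higher and 1 lower in CD4 T cells and 2 higher in T cells with gamma-delta receptor genes. The lower count in ILC2s was 1 with the depth limit and 1 with equal weight, equal weight gave 2 higher in CD8 T cells, and centred ratios gave 2 higher in T cells with gamma-delta receptor genes.

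The summed log2 ratio of ILC2s over CD8 T cells was 1.30 (stricter gate) and 1.21 (clusters) in the knockout-labelled library, where it was 1.26, and 1.43 (stricter gate) in wild-type kidney, where it was 1.35. Over ILC1/NK cells it was 0.995 (stricter gate) and 0.88 (clusters) instead of 0.91 in the knockout-labelled library, and 1.08 (stricter gate) and 0.99 (clusters) instead of 1.03 in wild-type kidney. For ILC3s over epithelium it was 1.03 (stricter gate), 0.88 (10% mitochondrial limit), 0.88 (depth limit) and 0.95 (no shared barcodes) after UUO. After sham surgery it was 0.98 (stricter gate), 0.84 (clusters), 0.78 (10% mitochondrial limit), 0.81 (depth limit) and 0.62 (no shared barcodes). Co-detection was 1.17 instead of 1.11 in ILC1/NK cells of the knockout-labelled library at 1500 UMIs, and 1.12 at 1500 UMIs and 1.14 unthinned instead of 1.21 in CD4 T cells of wild-type kidney.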
